A study of Mus musculus with 53 samples.

Results

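Beta-catenin, encoded by Ctnnb1, and 4 genes that carry its feedback signal, Axin2, Nkd1, Apcdd1 and Wif1, were followed across 53 arrays of mouse T-cell lymphomas. The 5 genes were chosen by their measured levels in these arrays, which had already been seen to be high in tumours of beta-catenin transgenic mice, so those levels are given here as a description and without a test. By the gene table of the array they were read by 11 of 22690 probe sets, and they are 5 of 12393 measured genes. Ctnnb1 had 3 probe sets, Axin2 had 2, Nkd1 had 1, Apcdd1 had 4 and Wif1 had 1.

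The arrays measured total RNA of untreated T-cell lymphoblasts from tumours of C57BL/6 mice that differed in the lesion predisposing them to lymphoma. The beta-catenin transgenic group held 3 arrays and the other 14 genotype groups, called backgrounds here, held 50. Transgenic backgrounds were LMO1 (3 arrays), Nup98HoxD13 (3), Pokemon (2), Tal1 (2), ThPOK (3), TLX1 (6), Tal1-LMO2 (3) and LMO1 combined with a gene labelled olig1 in the genotype and olig2 in the titles (3). Knock out backgrounds were E2A (2), rag E2A (2), p53 (3) and Cdkn2a with retroviral insertional mutagenesis (9), and the remaining backgrounds were Ikaros Plastic (3) and a cross of TLX1 transgenic with RUNX heterozygous mice (6). The TLX1 transgenic tumours were labelled TLX1 positive and all other tumours, those of the cross included, TLX1 negative. The promoter of each transgene, the form of beta-catenin that was expressed and the ages of the mice are not given by the labels, and nothing states that the tumours of a background came from separate animals, so the spread between arrays may be technical. No tumour without a lymphoma-predisposing lesion and no normal thymus was among the arrays, so every comparison is between tumours.

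In the canonical Wnt pathway, beta-catenin is held at a low level by a destruction complex that contains Apc, Axin, Gsk3 and casein kinase and marks it for degradation, and a Wnt ligand bound to a Frizzled and Lrp receptor stops this. Stabilized beta-catenin enters the nucleus and activates target genes with Tcf and Lef factors, which in the thymus also guide early T-cell development. Several of those targets restrain the pathway in turn: Axin2 is a scaffold of the destruction complex, Nkd1 binds the Dishevelled proteins, Apcdd1 is a membrane glycoprotein that inhibits Wnt signalling at the cell surface and Wif1 is a secreted protein that binds Wnt ligands.

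Because the 4 feedback genes are known as targets of Tcf and Lef factors, the 250 bases before the transcription start were examined for Axin2, Nkd1 and Wif1. The sequences came from RefSeq's promoter table of mouse build GRCm38.p6. Capitals mark CTTTG, the core of the Tcf/Lef motif; all lie on the plus strand. Axin2 is at chr11:108920099-108920348, Nkd1 at chr8:88527383-88527632 and Wif1 at chr10:121033754-121034003, while Apcdd1 was left out of the search.
Axin2: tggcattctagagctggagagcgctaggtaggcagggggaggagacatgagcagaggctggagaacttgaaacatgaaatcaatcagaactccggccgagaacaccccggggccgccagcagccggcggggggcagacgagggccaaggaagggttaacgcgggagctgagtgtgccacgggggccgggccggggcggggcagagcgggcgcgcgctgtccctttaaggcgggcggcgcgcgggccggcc
Nkd1: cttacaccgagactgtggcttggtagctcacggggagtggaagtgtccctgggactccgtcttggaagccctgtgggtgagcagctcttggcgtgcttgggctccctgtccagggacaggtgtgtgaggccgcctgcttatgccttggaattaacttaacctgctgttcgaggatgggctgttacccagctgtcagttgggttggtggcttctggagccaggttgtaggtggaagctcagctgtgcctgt
Wif1: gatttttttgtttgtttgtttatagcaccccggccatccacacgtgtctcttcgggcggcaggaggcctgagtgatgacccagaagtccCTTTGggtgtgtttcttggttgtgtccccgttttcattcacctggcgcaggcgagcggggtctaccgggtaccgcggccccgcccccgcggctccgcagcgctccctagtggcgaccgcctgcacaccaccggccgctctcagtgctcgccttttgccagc
The fuller motif, which begins with CTTTG and goes on with 2 bases that are each A or T, was searched on both strands and did not occur in these 3 windows, whereas 14.84% of the 32851 promoters in the table held it in a window of the same length. The core CTTTG by itself, which this motif contains and which 48.58% of promoters held, occurred in the Wif1 window, where its first base lay at position -161 from the start. The windows were rich in G and C, at 69.2% for Axin2, 58.4% for Nkd1 and 62.8% for Wif1, against a median of 52.4%. A match or its absence describes the letters of these windows only.

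Array quality bears on some of what follows. Array medians lay between 377.2 and 589.6 in intensity units, and on the log2 scale its mean per background was highest in beta-catenin (9.08), Ikaros Plastic (9.06), Cdkn2a knock out (9.04) and ThPOK (9.01) tumours and lowest in the TLX1 and RUNX cross (8.61). On 27 bacterial control probe sets the arrays fell into sets of 38, 8, 6 and 1, which are groups of arrays found in the values and not labelled batches. All 3 beta-catenin arrays were in the largest, all TLX1 arrays in the set of 8 and all arrays of the cross in the set of 6. The sets changed with the controls used: on 45 control probe sets they held 32, 9, 9 and 3 arrays. The largest then held all 3 beta-catenin arrays, all 6 arrays of the cross and 4 TLX1 arrays, while the 3 ThPOK arrays lay outside it. The largest array set named below is that of the 27 probe sets. The log2 ratio of the 3' to the 5' actin probe set, which rises as RNA shortens, averaged 0.08 in beta-catenin tumours, 0.77 in the cross, 0.83 in Tal1, 0.96 in p53 knock out and 1.39 in TLX1 tumours.

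Ctnnb1, the gene named by the transgene, was highest on average in the beta-catenin background in each of its 3 probe sets, but by little, and its arrays overlapped those of other tumours. On probe set 1420811_a_at the 3 beta-catenin arrays read 12.90, 12.96 and 13.32 on the log2 scale (mean 13.06 ± 0.23, SD, n = 3). The other 50 arrays ran from 12.25 through a median of 12.73 to 13.24, and 7 of them reached the lowest beta-catenin array: Cdkn2a knock out replicates 1, 4 and 6, p53 knock out replicates 2 and 3, LMO1 with olig replicate 1 and rag E2A knock out replicate 3. The groups therefore overlapped broadly, and the difference from the mean of the other 14 background means was 0.33, which ranked 2410 of 9156 tested genes from the top. With each array centred on its median that difference was 0.14, and within the largest array set it was 0.29.

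The other Ctnnb1 probe sets gave larger differences and the same overlap. Probe set 1430533_a_at read 11.39, 11.60 and 12.10 in the beta-catenin tumours (11.69 ± 0.37, SD, n = 3), 0.999 above the mean of the others, and 8 other arrays reached the lowest of them. Its lowest backgrounds were TLX1 (9.51 ± 0.89, SD, n = 6) and the TLX1 and RUNX cross (9.30 ± 0.26, SD, n = 6), both with a high actin ratio and both outside the largest array set; within that set the difference was 0.68. Probe set 1450008_a_at read 11.87, 11.95 and 12.51 (12.11 ± 0.35, SD, n = 3), 0.71 above the others overall and 0.56 within the largest set, with 9 other arrays at or above the lowest. Between the beta-catenin mean and the next background in order, rag E2A knock out (12.90), Pokemon (11.46) and LMO1 with olig (11.87) for the 3 probe sets in turn, the gap was smaller than the larger of their SDs each time. No source used here says whether any of these probe sets reads the transgene's transcript as well as that of the mouse gene.

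**Figure D1:**
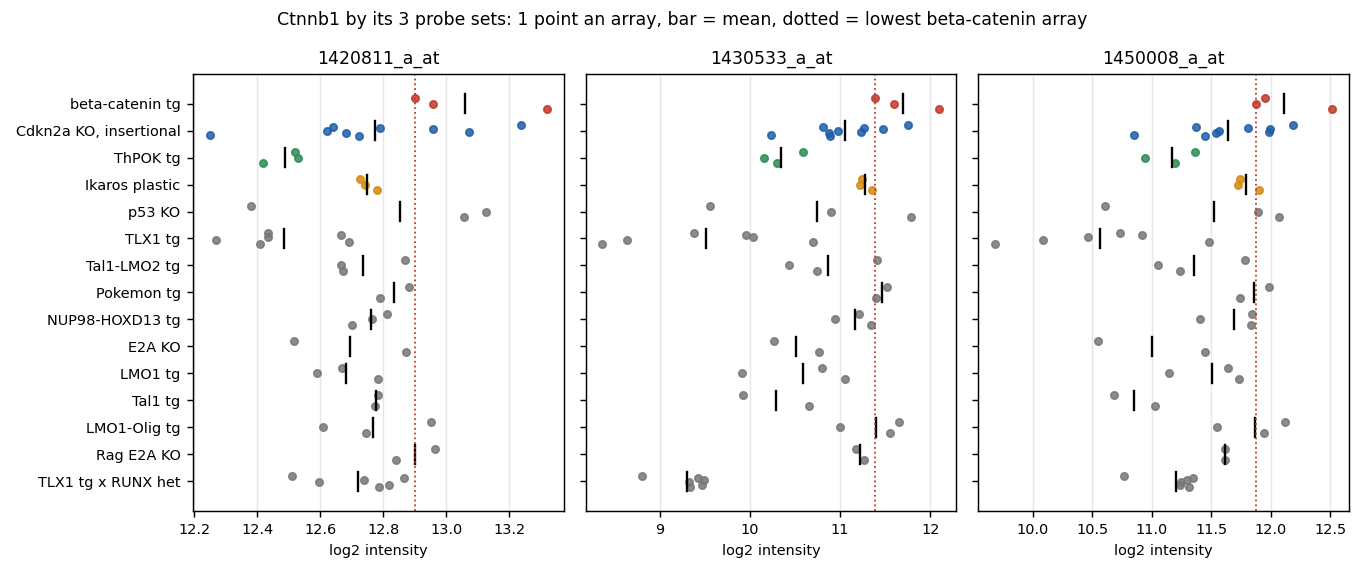
Log2 intensity of Ctnnb1 (horizontal axes) on each of its 3 probe sets, by background (rows); each point is an array, bars are background means and the dotted line is the lowest beta-catenin array. Beta-catenin tumours had the highest mean in every panel, yet 7, 8 and 9 arrays of other backgrounds lay at or right of the line.

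Axin2, the destruction complex scaffold and a widely used readout of Wnt signalling, was higher in beta-catenin tumours. On probe set 1436845_at they read 11.59, 11.42 and 11.81 (11.61 ± 0.20, SD, n = 3), 1.81 above the mean of the other backgrounds or 3.51-fold, the 47th largest difference of 9156. The only other array in their range was Cdkn2a knock out replicate 6 at 11.56. The gap of 1.14 to the next background, Cdkn2a knock out, was larger than the SD of either.

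Axin2 was not level among the remaining tumours. The 9 Cdkn2a knock out arrays ran from 9.71 through a median of 10.39 to 11.56 (10.47 ± 0.66, SD), and the 3 Ikaros Plastic arrays read 11.11, 9.82 and 10.34. ThPOK replicate 1 stood at 10.64 against 9.94 and 9.63 in replicates 2 and 3, while p53 knock out tumours averaged 10.15 ± 0.18 (SD, n = 3). Below these, the backgrounds descended in steps smaller than their spread to rag E2A knock out at 9.47, with the TLX1 and RUNX cross apart at the bottom (8.91 ± 0.22, SD, n = 6). The weaker probe set 1421341_at gave 9.23, 9.11 and 9.37 in beta-catenin tumours (9.24 ± 0.13, SD, n = 3), 1.01 above the others, and there the next backgrounds were TLX1 (8.87 ± 0.30, SD, n = 6) and p53 knock out (8.80 ± 0.22, SD, n = 3), while TLX1 replicate 6, at 9.38, was the highest of all 53 arrays. The probe sets thus shared the background of highest mean and differed on the order below it.

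Nkd1, the Dishevelled-binding inhibitor, showed the same top background with more overlap. Beta-catenin tumours read 9.75, 10.26 and 10.51 (10.17 ± 0.39, SD, n = 3), 1.26 above the others or 2.39-fold, the 127th largest difference. The lowest of them was reached by 5 other arrays: Cdkn2a knock out replicates 2 (10.40), 4 (10.16), 6 (10.33) and 8 (9.80), and ThPOK replicate 1 (9.75). The Cdkn2a knock out mean of 9.82 ± 0.39 (SD, n = 9) was 0.35 below that of the beta-catenin tumours, less than the SD of either, so for Nkd1 these neighbours did not differ beyond their spread. ThPOK followed at 9.52 ± 0.21 (SD, n = 3), which lay above Ikaros Plastic (9.17 ± 0.26, SD, n = 3) by more than their spread, and the cross of TLX1 and RUNX was lowest with arrays between 7.98 and 8.21.

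Apcdd1, the membrane inhibitor, differed far more, and all 4 of its probe sets put beta-catenin first. On probe set 1454822_x_at the beta-catenin arrays read 12.16, 12.03 and 12.81 (12.33 ± 0.42, SD, n = 3), 4.27 above the mean of the other backgrounds or 19.3-fold, the second largest difference of all genes tested. Cdkn2a knock out replicate 6, at 12.13, lay among them. The other probe sets gave differences of 4.35, 4.27 and 3.46, and on the last of these, 1418383_at, no other array reached the beta-catenin tumours.

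Among the remaining tumours Apcdd1 was high in single arrays and not in whole backgrounds. Cdkn2a knock out replicates 1 to 4 read 9.80, 11.47, 10.74 and 11.76, replicate 6 read 12.13, and replicates 5, 7, 8 and 9 read 7.33, 7.09, 6.87 and 6.97, so that 5 arrays lay at 9.80 or above and 4 at 7.33 or below. ThPOK replicate 1 read 11.60 against 8.35 and 8.43 in its companions. Elsewhere the highest arrays were LMO1 with olig replicate 1 (9.67, next highest companion 8.40), rag E2A knock out replicate 3 (9.27, companion 7.11) and replicate 1 of the TLX1 and RUNX cross (9.01, next highest companion 7.81). The lowest background, E2A knock out, averaged 6.75.

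Wif1, the secreted Wnt antagonist, had the largest difference of the 9156 genes tested. Beta-catenin tumours read 12.16, 11.50 and 11.35 (11.67 ± 0.43, SD, n = 3), 4.70 above the mean of the other backgrounds or 26.0-fold, and no other array reached them. The nearest was ThPOK replicate 1 at 10.80, whereas ThPOK replicates 2 and 3 read 6.45 and 6.82. Cdkn2a knock out replicates 2, 3, 4 and 6 read 10.70, 9.73, 9.65 and 10.003, replicate 5 read 7.62, and replicates 1, 7, 8 and 9 read 6.98, 6.28, 6.68 and 6.60. Some arrays were also raised in Ikaros Plastic (8.33 in replicate 1 and 7.56 in replicate 2, against 6.41), Tal1 (8.27 in replicate 1, against 6.56) and the TLX1 and RUNX cross (8.09 in replicate 2). All other arrays lay between 6.15 and 6.98.

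**Figure D2:**
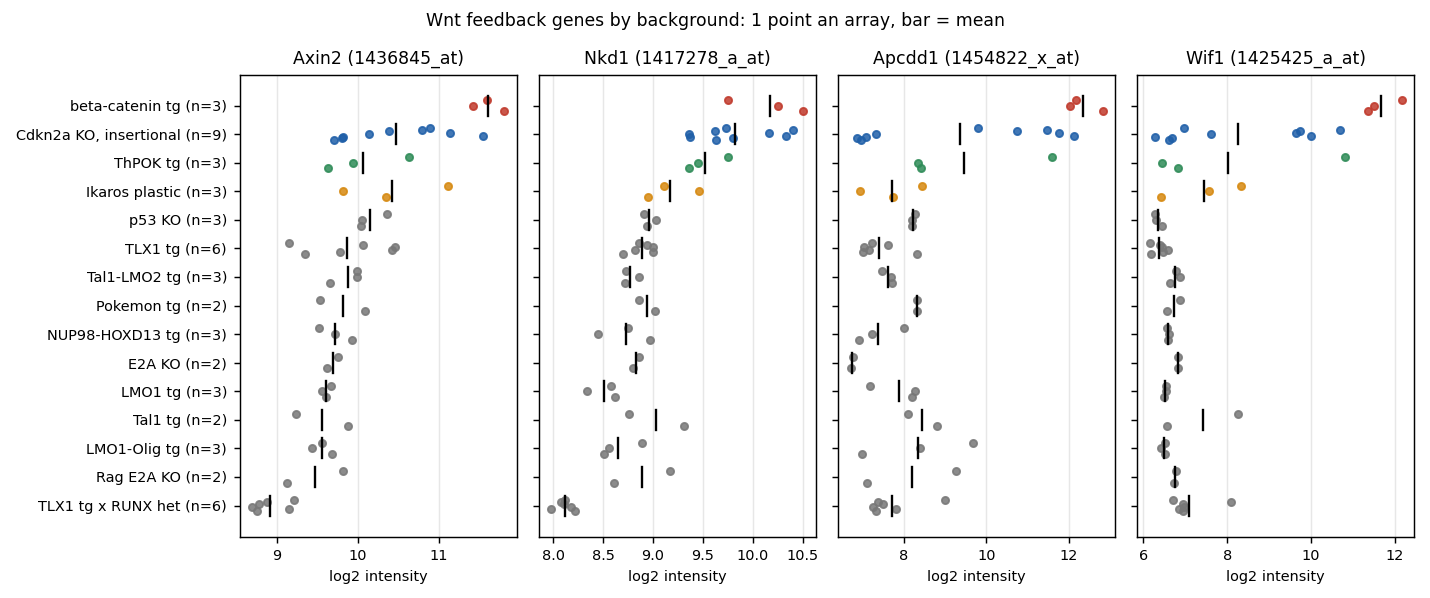
Log2 intensity (horizontal axes) of Axin2, Nkd1, Apcdd1 and Wif1, on the probe set of highest mean of each, in the 15 backgrounds (rows, with the number of arrays); each point is an array and bars are background means. Red beta-catenin points lie furthest right in each panel, with 1, 5, 1 and 0 other arrays at or above the lowest of them, and the blue Cdkn2a knock out points spread from 6.87 to 12.13 for Apcdd1.

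The question behind the choice of these genes was whether they are raised only in beta-catenin tumours. Beta-catenin was first of 15 backgrounds in all 11 probe sets, and the 4 feedback genes were not raised there alone. Background counts are needed to read this, since 23.1% of all genes tested were called higher in the beta-catenin tumours (limma adjusted p under 0.05) and 0.775% had all 3 beta-catenin arrays above all 50 others, or 1.04% above the other arrays of the largest array set. Wif1 was the 1 gene of the 5 to lie above all 50 on its probe set of highest mean. These shares describe the same contrast that chose the genes, and nothing is drawn from them. How often the gene was above its array's median differed as well: Wif1 was above it on 8 arrays, 5 of them outside the beta-catenin background, Apcdd1 (1454822_x_at) on 12, 9 of them outside, Nkd1 on 26, and Axin2 (1436845_at) and Ctnnb1 (1420811_a_at) on all 53. Wif1 and Apcdd1 therefore passed the filter on low values, which asked for at least 3 arrays above the median, through few arrays.

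The levels of Axin2 and Nkd1 followed the overall brightness of the arrays across backgrounds, and that of Ctnnb1 did so less. Over the 15 background means, Pearson's r with the array median was 0.85 for Axin2 (1436845_at) and 0.86 for Nkd1, and without the beta-catenin background it was 0.93 and 0.86 over 14. It was 0.52 for Wif1, 0.50 for Apcdd1 (1454822_x_at) and 0.05 for Ctnnb1 (1420811_a_at). The other Ctnnb1 probe sets gave 0.37 (1430533_a_at) and 0.15 (1450008_a_at). These are descriptions over backgrounds of unequal size that share array sets, and what part brightness has in the levels was not tested.

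Set against the 3 backgrounds of nearest brightness alone, Ikaros Plastic, Cdkn2a knock out and ThPOK, an alternative chosen after the values were seen, the beta-catenin tumours were still above the mean of those backgrounds by 3.77 for Wif1, 3.49 for Apcdd1 (1454822_x_at), 1.29 for Axin2 (1436845_at), 0.67 for Nkd1 and 0.39 for Ctnnb1 (1420811_a_at). The other Axin2 probe set, 1421341_at, was above them by 0.90 against 1.01 with all backgrounds in use. With arrays centred on their medians and all backgrounds in use, the differences were 4.51 for Wif1, 4.08 for Apcdd1, 1.62 for Axin2 and 1.07 for Nkd1.

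**Figure D3:**
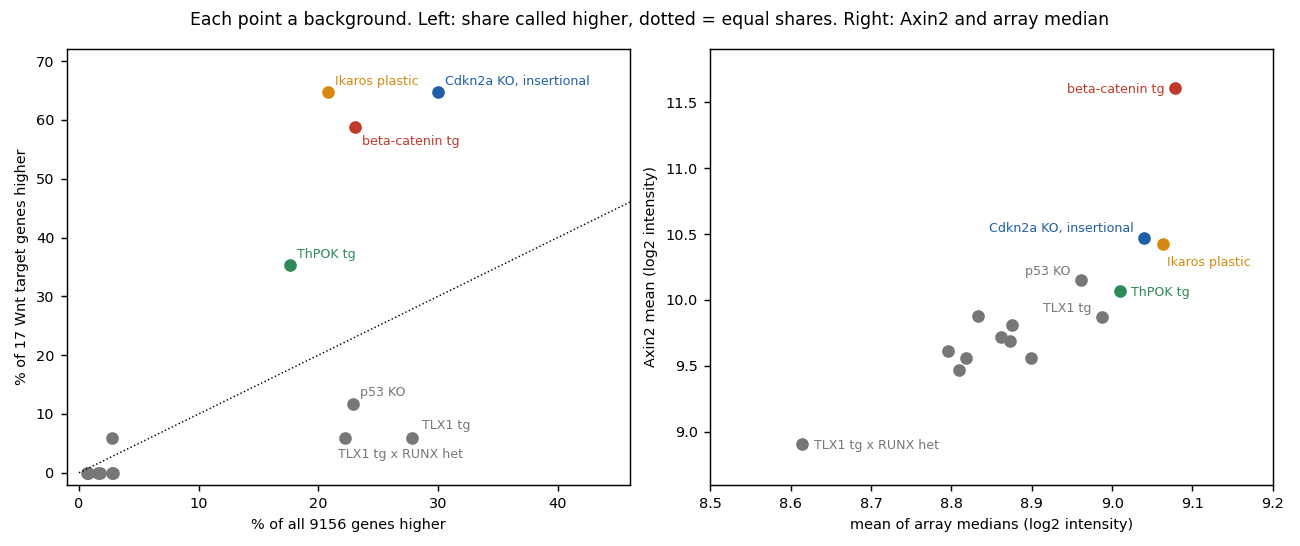
Each point is a background. The left panel sets the percentage of 17 tested Wnt target genes called higher (vertical) against that of all 9156 genes (horizontal), with a dotted line where they are equal; the right panel sets the mean log2 intensity of Axin2 against the mean of the log2 array medians. Ikaros Plastic and Cdkn2a knock out (11 of 17 targets each) lie level with or above beta-catenin (10 of 17) on the left, and on the right beta-catenin stands at 11.61 and a median of 9.08, above the other backgrounds.

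Whether the 5 genes move together from tumour to tumour within a background was not used to choose them, and was tested on 34 arrays of 11 backgrounds in the largest array set, without the beta-catenin tumours. Deviations from the background mean were correlated for the 10 pairs, with permutation p-values adjusted over the pairs. Axin2 with Apcdd1 gave Pearson's r of 0.80 and Spearman's rho of 0.70 (permutation p = 0.00016, adjusted p = 0.0016), and Apcdd1 with Wif1 gave 0.79 and 0.59 (permutation p = 0.00086, adjusted p = 0.0043). Nkd1 with Apcdd1 gave 0.67 and 0.53 (adjusted permutation p = 0.008667), Axin2 with Nkd1 0.60 and 0.60 (0.0216), Axin2 with Wif1 0.61 and 0.50 (0.02668) and Nkd1 with Wif1 0.54 and 0.41 (0.02874). For Nkd1 with Wif1 the adjusted permutation p of rho was 0.0685, and for the other 5 pairs of feedback genes it was at most 0.04404.

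Of the pairs that hold Ctnnb1, 1 of 4 passed by Pearson's r. Whether these correlations differ from those among the feedback genes was not tested. With Axin2 Ctnnb1 gave r of 0.52 and rho of 0.42 (adjusted permutation p of r = 0.02874), with Apcdd1 0.53 and 0.47 (0.05144), with Nkd1 0.24 and 0.30 (0.3979) and with Wif1 0.20 and 0.31 (0.4539). By rho, Ctnnb1 passed with both Axin2 and Apcdd1 (adjusted permutation p of rho = 0.04404 for each). With Nkd1 and with Wif1 that p was 0.124. Leaving out the 2 arrays farthest from the median of the first gene of each pair gave r of 0.73 for Axin2 with Apcdd1, 0.75 for Apcdd1 with Wif1, 0.52 for Axin2 with Nkd1, 0.37 for Nkd1 with Wif1, 0.45 for Ctnnb1 with Axin2, 0.50 for Ctnnb1 with Apcdd1 and 0.41 for Ctnnb1 with Nkd1.

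The calls of these correlations depended on including the Cdkn2a knock out tumours. In these Apcdd1 and Wif1 fall into a high and a low set of arrays, each with fewer than 6, so that no value within either can be given. A call can also be lost through fewer arrays, and the part of each was not tested. Without that background, an alternative chosen after the values were seen, 25 arrays of 10 backgrounds remained and none of the 10 pairs passed: r ran from 0.06 to 0.58 and the lowest adjusted permutation p was 0.39. The relation of Ctnnb1 with Axin2 also missed the threshold over all 50 arrays outside the beta-catenin background (r = 0.28, adjusted permutation p = 0.1611).

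The titles of the Cdkn2a knock out arrays carry gene names, which the labels do not explain, and tumours of the same name lay on both sides. Of the 2 titled myb, replicate 6 read 12.13 for Apcdd1 and 10.003 for Wif1 while replicate 9 read 6.97 and 6.60. Of the 2 titled as a mix of myc and ras, replicate 3 read 10.74 and 9.73 and replicate 5 read 7.33 and 7.62. Replicate 1, titled myc, was high for Apcdd1 (9.80) and Axin2 (10.90) and low for Wif1 (6.98), and it had the highest Ctnnb1 value outside the beta-catenin background on 1420811_a_at (13.24). In replicate 8, titled pim1_ccnd3, Nkd1 was at 9.80, within the beta-catenin range, with Apcdd1 at 6.87 and Wif1 at 6.68.

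**Figure D4:**
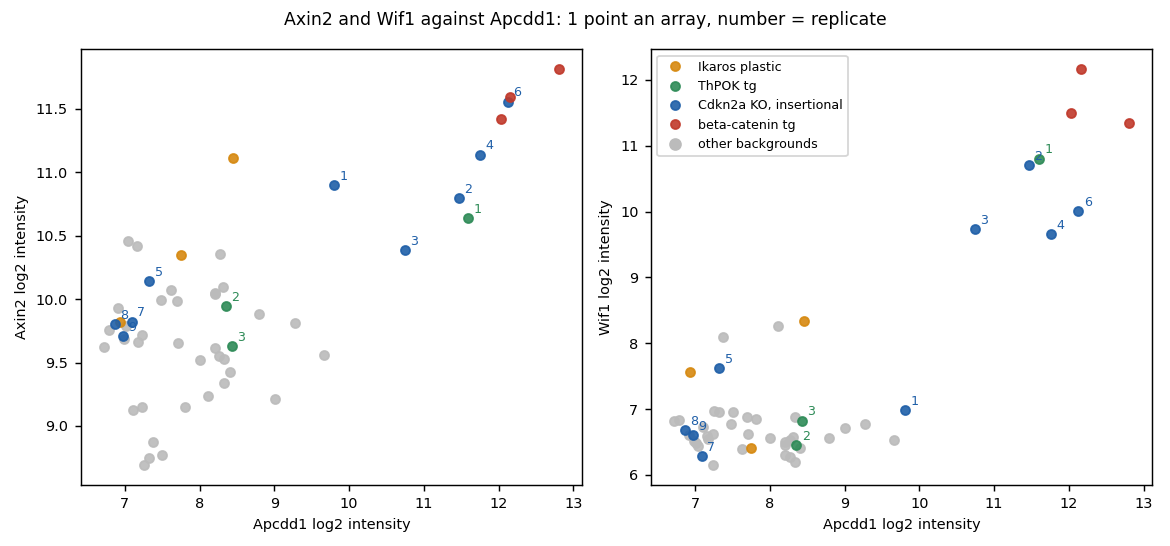
Axin2 (left, vertical) and Wif1 (right, vertical) against Apcdd1 (horizontal), all as log2 intensity on the probe set of highest mean; each point is an array and numbers are replicates of the Cdkn2a knock out (blue) and ThPOK (green) backgrounds. Cdkn2a knock out replicates 2, 3, 4 and 6 and ThPOK replicate 1 lie toward the beta-catenin tumours on both panels, while Cdkn2a knock out replicate 1 does so for Axin2 and not for Wif1 (6.98).

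Over the 15 background means, the genes whose pattern was most like that of each gene were listed by Pearson's r, as a description. For Wif1 they were Slc38a4 (0.97), an amino acid transporter, Opn3 (0.95), an opsin, and Lad1 (0.94), and for Apcdd1 they were Wif1 itself (0.91), Acot5 (0.90) and Opn3 (0.89). The single high background carries much of this: without beta-catenin, r fell to 0.83 for Slc38a4 with Wif1 and 0.66 for Wif1 with Apcdd1. For Axin2 the nearest were Ccl22 (0.94), a chemokine, Zfp651 (0.94) and Arid3a (0.94), and for Nkd1 they were Slc7a11 (0.97), the cystine transporter, Dnajb8 (0.96) and Tmem158 (0.95); for Nkd1 with Slc7a11, r was 0.94 without beta-catenin. Ctnnb1 was most like Noct (0.83), Atp2a2 (0.76) and Rnf4 (0.75), and its r with the 4 feedback genes, 0.31 to 0.50 over 15 backgrounds, was between -0.18 and 0.01 over the 14 without beta-catenin.

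Other known targets of beta-catenin were mostly higher in the beta-catenin tumours too, but many were also called higher in Ikaros Plastic and Cdkn2a knock out tumours, with smaller median differences. Of 26 listed targets that are not among the 5 genes, 23 were measured, 17 passed the filter on low values, 10 were called higher and 0 lower by limma at an adjusted p under 0.05, beside 23.1% and 13.0% of all genes; the median difference was 0.66 against 0.02 for all genes. Tnfrsf19, a receptor of the tumour necrosis factor family, was 1.29 ± 0.10 higher (SE, limma adjusted p = 8.07e-13). Its beta-catenin arrays read 9.16, 10.19 and 9.31, each above its array median. The other arrays had a median of 8.20 and a highest value of 9.19. These 3 arrays were enough to meet the filter on low values, so its call is given as a description. Notum, a secreted enzyme that inactivates Wnt proteins, was 1.07 ± 0.08 higher (SE, limma adjusted p = 8.07e-13). Its beta-catenin arrays had an SD of 0.29, against 0.56 for those of Tnfrsf19. All 3 of its beta-catenin arrays lay above the 50 others, as for 0.775% of all genes. Sp5, a transcription factor, rose by 0.98 ± 0.13 (adjusted p = 4.51e-08) and Bambi, a decoy receptor for transforming growth factor beta, by 0.98 ± 0.19 (adjusted p = 6.76e-05).

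The remaining called targets were Nkd2 (0.86), the paralog of Nkd1, Ephb3 (0.83), Jun (0.70), Myc (0.66, limma adjusted p = 0.0316), Sox9 (0.51) and Ascl2 (0.46). Other probe sets of some of these had the opposite sign, with differences of -0.46 for Jun, -0.06 for Sox9 and -0.10 and -0.09 for Ascl2. For Nkd2 the other probe set had the same sign and a smaller difference (0.36). Lef1, the lymphoid partner of beta-catenin, differed by -0.54 and was not called (adjusted p = 0.276), and Tcf7 was not analysed here. Without the beta-catenin contrast, in the 34 arrays of the covariation test, Sp5 had an r of 0.63 with Nkd1 and 0.48 with Wif1, and Bambi had 0.53 with Apcdd1 and 0.53 with Wif1, while Lef1 had -0.01 with Axin2. Other called targets went the opposite way: Ephb3 had -0.37 with Axin2, -0.37 with Apcdd1 and -0.36 with Wif1, Sox9 had -0.34 with Axin2 and -0.36 with Apcdd1, and Notum had -0.35 with Axin2 and -0.23 with Apcdd1. Of the 17 targets, 7 had an r above 0 with Axin2, 13 with Nkd1, 8 with Apcdd1 and 6 with Wif1, and the median over all genes was between -0.09 and 0.00 for these 4 feedback genes.

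The same target list was counted in each other background against the mean of the rest; these comparisons share arrays and are set side by side only. In Ikaros Plastic tumours 11 of 17 were called higher and 1 lower, beside 20.8% and 11.4% of all genes. In Cdkn2a knock out tumours 11 were higher and 3 lower, beside 30.0% and 18.3%, and in ThPOK tumours 6 were higher and 0 lower, beside 17.6% and 9.33%. The median difference of the targets was 0.437 in Ikaros Plastic, 0.444 in Cdkn2a knock out and 0.08 in ThPOK tumours, against 0.66 in beta-catenin tumours. Counts of calls also depend on the number of arrays, which differed between backgrounds. TLX1 tumours had 1 higher and 6 lower (27.8% and 19.6% of all genes), p53 knock out tumours 2 and 8 (22.9% and 21.3%), and the TLX1 and RUNX cross 1 and 13 (22.3% and 41.3%). The LMO1 with olig background had 1 and 4 (2.72% and 6.86%) and LMO1 0 and 4 (2.83% and 8.33%). The 6 remaining backgrounds had 0 targets called either way by limma, beside few calls over all genes: E2A knock out 1.61% higher and 1.17% lower, Tal1 2.8% and 0.83%, Tal1-LMO2 1.77% and 2.73%, Nup98HoxD13 0.732% and 1.39%, Pokemon 0.797% and 1.41%, and rag E2A knock out 0.71% and 1.2%. Scaling changed some of these counts. In ThPOK tumours 3 targets were higher and 2 lower after quantile normalization (15.6% and 9.9% of all genes), and 2 and 1 after centring (11.04% and 15.04%). In the cross 1 was higher and 9 lower after quantile normalization (26.1% and 32.6% of all genes). After centring 2 were higher and 8 lower, and the shares of all genes turned round to 44.6% higher and 26.8% lower. Lower targets in TLX1 tumours numbered 8 after quantile normalization and 9 after centring, beside 23.9% and 27.2% of all genes. In LMO1 with olig they numbered 2 under either, beside 2.73% and 2.92%. In Ikaros Plastic tumours 8 were higher under either scaling, beside 16.0% of all genes after quantile normalization and 12.7% after centring. In Cdkn2a knock out tumours 10 were higher under either, beside 25.8% and 18.6%. The backgrounds in which many targets were called higher were those of the highest array medians, and the part of brightness in these counts was not tested.

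**Figure D5:**
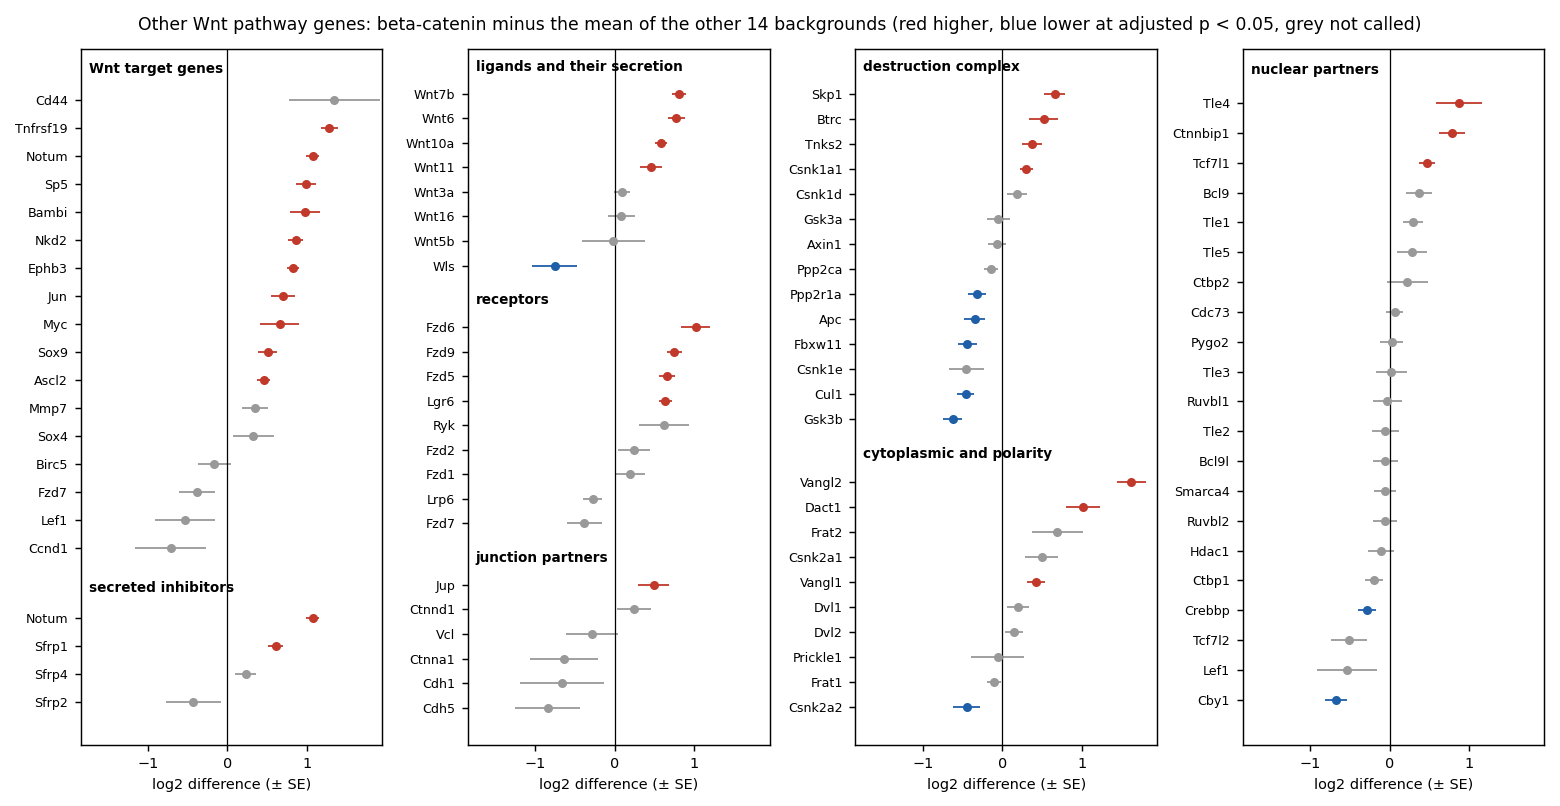
Log2 difference (horizontal, ± SE) between the beta-catenin tumours and the mean of the other 14 backgrounds for tested Wnt pathway genes (rows), by role; red is called higher and blue lower by limma at an adjusted p under 0.05, and grey is not called. Among targets 10 of 17 are red and none is blue, with Tnfrsf19 at 1.29, while the destruction complex has 4 red and 5 blue of 14.

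At the top of the pathway, Wnt ligands and receptors were often too dim to test: 13 of 21 ligands and 7 of 16 measured receptors did not pass the filter. These counts and those of the lists that follow are to be read beside the 23.1% of all genes called higher and 13.0% called lower. Of 8 ligand genes tested, 4 were called higher, Wnt7b (0.81), Wnt6 (0.78), Wnt10a (0.58) and Wnt11 (0.46), and Wls, which carries Wnt proteins out of the cell, was lower (-0.76, limma adjusted p = 0.0318). Of 9 receptors, 4 were called higher, Fzd6 (1.02), Fzd9 (0.75), Fzd5 (0.66) and Lgr6 (0.63), and 0 lower. Of 4 secreted inhibitors besides Wif1, Notum and Sfrp1 (0.61) were called higher. A further probe set gave 0.08 for Wnt7b. For Sfrp1 another probe set gave a like difference of 0.58, and the remaining ones gave 0.01 and -0.15.

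In the destruction complex that Axin2 joins, genes went both ways: of 14 tested, 4 were called higher and 5 lower, beside 23.1% and 13.0% of all genes, so that the share called higher was near that of all genes. Skp1, a subunit of the ubiquitin ligase, was higher by 0.66 (limma adjusted p = 0.000168), with Btrc (0.52), Tnks2 (0.38) and Csnk1a1 (0.30). Gsk3b, the kinase that marks beta-catenin, was lower (-0.62, adjusted p = 5.56e-05), as were Cul1 (-0.46), with all 3 arrays below the 50 others as for 0.24% of all genes, Fbxw11 (-0.44), Apc (-0.35) and Ppp2r1a (-0.32). Axin1, the paralog of Axin2, differed by -0.07 and was not called (adjusted p = 0.673). Other probe sets gave 0.55 and -0.27 for Fbxw11, 0.15 and 0.02 for Apc, -0.21 and 0.66 for Csnk1a1 and 0.01 for Btrc.

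Among cytoplasmic and polarity genes 3 of 10 were called higher and 1 lower, near the 23.1% and 13.0% of all genes. Vangl2, a membrane protein of planar cell polarity, was higher by 1.63 ± 0.18 (SE, limma adjusted p = 2.36e-09), and all 3 beta-catenin arrays lay above the 50 others, as for 0.775% of all genes. Dact1 (1.02), like Nkd1 a Dishevelled-binding protein, and Vangl1 (0.42) were also called, and Csnk2a2 was lower (-0.45). Of 21 nuclear partners of beta-catenin, 3 were called higher and 2 lower, a smaller share than the 23.1% of all genes higher and near the 13.0% lower. The higher ones were the corepressor Tle4 (0.88), Ctnnbip1 (0.79), which blocks the binding of beta-catenin to Tcf factors, and Tcf7l1 (0.47). Cby1 (-0.68), which also inhibits beta-catenin, and the coactivator Crebbp (-0.28) were lower. Of 6 partners in cell junctions, Jup (0.49), the closest relative of beta-catenin, was called higher and 0 were lower.

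Calls in these lists depend on what the beta-catenin tumours are set against. Against Ikaros Plastic, Cdkn2a knock out and ThPOK tumours alone, where 6.35% of all genes were called higher and 4.82% lower, 5 targets stayed called: Sp5 (0.90), Tnfrsf19 (0.81), Bambi (0.69), Notum (0.61) and Ephb3 (0.30). Of the other pathway genes named here, Vangl2 (1.41), Skp1 (0.73), Fzd6 (0.51), Ctnnbip1 (0.44), Wnt6 (0.37), Gsk3b (-0.32), Cul1 (-0.44) and Wls (-0.68) stayed called. Against the 50 other arrays taken as 1 group, where 3.62% of all genes were called higher and 1.66% lower, 5 targets were called higher, and within the largest array set (26.3% and 15.7%) 10 were higher and 1, Lef1, lower (-0.96, limma adjusted p = 0.0204). After centring, 9 targets were higher and 1, Fzd7, lower, beside 15.1% and 28.3% of all genes. Centring each array on its median moved the median difference of all genes from 0.02 to -0.17; no pathway gene named here changed sign under it or under quantile normalization. Myc, Btrc, Csnk1a1, Tnks2, Vangl1, Wnt11 and Jup lost their call after centring, and Csnk2a2 lost it after quantile normalization (adjusted p = 0.0798). Within the largest array set, which holds all beta-catenin arrays, Wls (adjusted p = 0.0885), Myc (0.0605), Btrc (0.461), Csnk2a2 (0.132) and Jup (0.0691) were no longer called by limma. Single beta-catenin arrays also decided calls. Without replicate 1 the calls of Wls (adjusted p = 0.0652), Myc (0.177), Tle4 (0.125), Apc (0.219), Crebbp (0.086), Csnk2a2 (0.0776), Ppp2r1a (0.056) and Jup (0.253) were lost in limma. Without replicate 2 those of Wls (0.21), Myc (0.115), Tle4 (0.0641), Apc (0.115), Crebbp (0.0851), Ppp2r1a (0.0842), Btrc (0.208) and Wnt11 (0.0516) were lost, and without replicate 3 those of Wls (0.0691), Crebbp (0.229), Csnk2a2 (0.381), Ppp2r1a (0.104), Btrc (0.162), Tnks2 (0.141) and Jup (0.145).

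Markers of cell types were examined because the arrays measured bulk tumour RNA, in which fewer cells of a type and less RNA per cell cannot be told apart. All 10 measured T-cell markers were above the array median on each beta-catenin array, and their summed intensity was 36710 to 46777 there and 8458 to 60707 on the others. Of the 10, Cd5 was called higher (1.83) and Bcl11b lower (-0.97). Against the 23.1% of all genes called higher and 13.0% lower, 4 of 5 measured B-cell markers were tested and all 4 were called higher. Ms4a1 (1.56) and Cd79a (1.24) led, while Pax5 (0.165) did not pass the filter. Cd79a read 10.75, 8.59 and 9.46 in replicates 1 to 3, and 14 other arrays reached the lowest of these. The B-cell sums were 1889 to 4722 against 1049 to 5312 on the other arrays. Of 8 myeloid markers Itgam (3.29) and Lyz2 (1.27) were called higher, with sums of 15213 to 23749 against 4681 to 34491. Itgam read 9.63, 12.04 and 11.35, and 2 other arrays reached the lowest of these. All of these arrays were above their medians. Its 3 beta-catenin arrays were enough to meet the filter, so its call is given as a description.

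Calls in the remaining lists went in either direction. Of 7 fibroblast markers, Pdgfrb (-1.30) and Lum (-0.79) were lower, with sums of 4029 to 10934 against 1881 to 31313. Of 4 endothelial markers 0 were called, of 6 epithelial markers Cldn4 (0.64) and Krt14 (0.61) were higher, and of 3 erythroid markers Epor was higher (0.52). The sums of every list in beta-catenin tumours lay within the range of the other arrays, and the part of other cells in the levels of Wif1, Apcdd1, Axin2 and Nkd1 was not tested. In the Cdkn2a knock out tumours, without which none of the correlations above passed, the B-cell sum ran from 1235 to 3129 and the myeloid sum from 10851 to 15344.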

How the data were processed

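The labels describe Trizol-extracted total RNA of 53 tumours, made into biotinylated cRNA. The authors deposited a table of normalized linear intensity for 22690 probe sets; how it was normalized is stated in none of the sources used here and can change differences in overall level. The intensities of all 53 columns were taken to log2. Array number sets the limit of precision.

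Symbols came from the supplied gene table and RefSeq: of the probe sets, 20380 had 1 symbol, 691 several, 20351 matched by Entrez identifier, and 64 were controls. A gene was represented by its probe set of highest mean, but every probe set of the 5 genes is described. Testing covered the 9156 genes that exceeded the median of an array on 3 or more arrays. The most alike pair of arrays correlated at 0.989, and none were identical.

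The members and all lists were chosen with earlier results of these data known. Beta-catenin tumours were compared with the mean of the other 14 background means by limma 3.58.1 (lmFit and eBayes, R 4.3.3) on all 53 arrays, two-sided; adjusted p-values are Benjamini-Hochberg over the genes tested, called under 0.05. The SE and p of a gene used 1 estimate of its spread within backgrounds, shared by all 15. They leave out how far the other backgrounds differ from each other, and can be smaller than the spread of the beta-catenin arrays would give. On simulated data with 200 changed genes of 9156, a log2 change of 1 was recovered for 89%, with 3 false calls. The simulated arrays had independent noise and no differences between the other backgrounds or array sets. These figures therefore check the code and give no rate of false calls for the real arrays. Covariation used 100000 two-sided permutations within backgrounds. Named pathway genes are up to 4 called genes of largest difference in each direction per list (2 for markers), with Lef1, Tcf7 and Myc; likeness lists give the 3 genes of highest r. Array sets came from clustering 27 bacterial control probe sets into 4. Cdkn2a knock out replicates are numbered in accession order. Alternatives covered filters, probe sets, scaling, priors, left-out arrays and backgrounds, array sets and the controls used. Other tools were SciPy 1.17.1, pandas 2.3.3, NumPy 2.4.6 and Matplotlib 3.10.9 in Python 3.11.15.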

Additional observations from a re-analysis of the deposited data

Results flagged for a closer look

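Of 33 groups of 4 to 10 arrays examined for the 11 probe sets, 7 had an array set far apart from its companions, where chance alone gives about 1 in 20. All 7 were in the TLX1 and RUNX cross. Replicate 1 of the cross was low for Ctnnb1, at 8.80 on 1430533_a_at against 9.32 to 9.49 in the other 5 arrays, and at 10.76 on 1450008_a_at against 11.24 to 11.34. The same array was high for Apcdd1 on all 4 probe sets: 8.05 on 1418382_at against 6.87 to 7.20, 7.39 on 1418383_at against 7.02 to 7.13, 8.91 on 1449070_x_at against 7.37 to 7.80, and 9.01 on 1454822_x_at against 7.25 to 7.81. Replicate 2 of the cross was high for Wif1, at 8.09 on 1425425_a_at against 6.72 to 6.98. The 4 Apcdd1 probe sets read the same gene, as do those of Ctnnb1, and all 11 probe sets were read on the same arrays. The 33 groups are therefore not independent, so the 7 cannot be set against 1 in 20.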

How the results depend on the processing

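The beta-catenin differences of the 11 probe sets were positive under all alternatives run, from 0.14 (Ctnnb1 1420811_a_at, arrays centred) to 4.90 (Wif1). They moved by more than the replicate SD for Axin2 1421341_at (0.84 after quantile normalization, 0.82 after centring) and, with Ikaros Plastic, Cdkn2a knock out and ThPOK as the only controls, for Nkd1 (0.67), Axin2 1436845_at (1.29), Apcdd1 (3.41 on 1418382_at, 3.46 on 1449070_x_at, 3.49 on 1454822_x_at) and Wif1 (3.77).

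Of all genes, 2113 were called higher and 1186 lower. These counts were 3589 higher without a filter, 1293 higher with a stricter filter, 1382 higher and 2588 lower after centring, 331 and 152 against the 50 arrays as 1 group, and 581 and 441 against the 3 backgrounds above. Leaving out each beta-catenin array gave 586 to 747 lower. The share of calls that were higher was 64.05% in the report, 53.3% after quantile normalization and 34.8% after centring. Targets higher fell from 10 to 5 against the 50 arrays as 1 group and to 5 against the 3 backgrounds; 1 target was lower after quantile normalization, after centring and in the largest array set. In other backgrounds, quantile normalization left 0 targets higher in LMO1 with olig, 1 in p53 knock out and 3 in ThPOK, beside 1.81%, 21.1% and 15.6% of all genes. Centring left 2 in ThPOK, 1 in Tal1-LMO2 and 2 in the TLX1 and RUNX cross, beside 11.04%, 3.94% and 44.6%.

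With the probe set of largest interquartile range, Fbxw11 (0.55) and Tcf7l1 (-0.13) changed sign, and with the 3 backgrounds as controls Btrc (-0.33), Csnk2a2 (0.15) and Sox9 (-0.071) did. Ctnnb1 with Axin2 had r of 0.28 over all 50 arrays, and Ctnnb1 with Apcdd1 passed after centring (r = 0.57, adjusted permutation p = 0.027). Without the Cdkn2a knock out background, r was 0.082 for Ctnnb1 with Axin2, 0.37 for Axin2 with Nkd1, 0.56 for Axin2 with Apcdd1, 0.41 for Axin2 with Wif1, 0.46 for Nkd1 with Apcdd1, 0.20 for Nkd1 with Wif1 and 0.58 for Apcdd1 with Wif1. With a replicate block, 2141 genes were higher and 1142 lower. Over 216 pairs of arrays with the same number the median correlation of deviations was -0.016, from -0.31 to 0.37, and 32 were above 0.1. Whether arrays of the same number share more than a label was not tested. The cause of these changes was not tested.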
